A study of Dunaliella salina with 12 samples.

Results

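In Dunaliella salina, 27 of the 82333 assembled genes in the table differed from control cells in opposite directions after added NaCl and after added sorbitol. A gene was a member when its mean over the 12 libraries was at least 2 FPKM and its control mean was below 1000 FPKM. Its mean log2(FPKM + 1) with NaCl and with sorbitol also had to differ from that of the control in opposite directions, each by at least 0.4. The H2O2 mean had to lie within 0.4 of the control mean. Finally, the 3 NaCl libraries had to lie all on one side of the 3 control libraries and the 3 sorbitol libraries all on the other. FPKM counts sequenced fragments relative to the length of a transcript and to the number mapped in a library. The members were therefore chosen by these very differences, which are given as a description and with no test. The opposite movement itself is not a finding.

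Dunaliella salina is a unicellular green alga of salt lakes, here strain 435, labelled as 5 days old and grown at 25 °C under 8000 lx with light for 16 h and darkness for 8 h a day. All groups were spun down and moved for 2 h into fresh medium that held 1.5 M NaCl, so the controls were in salt as well. The control group had no addition, the NaCl group a further 1.5 M NaCl, the sorbitol group 1.5 M sorbitol and the H2O2 group 0.4 mM H2O2. There were 3 libraries in each of the 4 groups. The labels do not say whether these came from separate cultures, so the spread between them may be technical. Whole cultures were sequenced, so fewer transcripts per cell and fewer cells with the transcript cannot be told apart.

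The alga has no rigid cell wall and shrinks when the medium becomes more concentrated. It then makes glycerol, from photosynthesis and from stored starch, until its interior balances the outside. It also keeps the sodium inside the cell low by pumping ions across its membranes. Sorbitol raises the external osmotic strength without bringing sodium or chloride. NaCl brings both, and since it dissolves into ions it also adds more particles per mole than sorbitol, so the treatments differ in osmotic strength and in salt together.

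Each gene ID names a component of the transcript assembly and a gene within that component. The files do not pair them with names, and 0 of them matched the 16683 genes of the reference table for the assembly Dunsal1 v. 2. The functions and sequences of the members are therefore not given, and no pathway list could be counted. In each class the members were ranked by the smaller of their absolute differences with NaCl and with sorbitol. The first 2 members of a mean of at least 10 FPKM are named by ID, and the others by rank.

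Libraries listed between 37005 and 42727 genes above 0 and summed to between 1065190 and 1133348 FPKM. Absolute depth is unknown. Relative depth, estimated from the spacing of low values, ran from 0.911 to 1.202 around a mean of 1, and H2O2 libraries were among the shallower ones (0.911 to 0.953). The spacing was shared by 12.7% to 27.4% of the low genes compared, so these depths are rough. Between 2 libraries of a group, the deposited value was identical in no more than 3.64% of the genes listed above 0 in at least 1 of them.

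Of the 18245 genes that met the conditions on level, 162 differed from the control in opposite directions by at least 0.4 with both treatments. They comprised 85 genes higher with NaCl and lower with sorbitol, and 77 of the reverse kind. The condition on H2O2 removed 91 of them, 54 and 37. The condition on single libraries removed another 44, 16 and 28. This left 15 genes higher with NaCl and lower with sorbitol, called the NaCl-high class here, and 12 genes lower with NaCl and higher with sorbitol, called the sorbitol-high class.

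**Figure D1:**
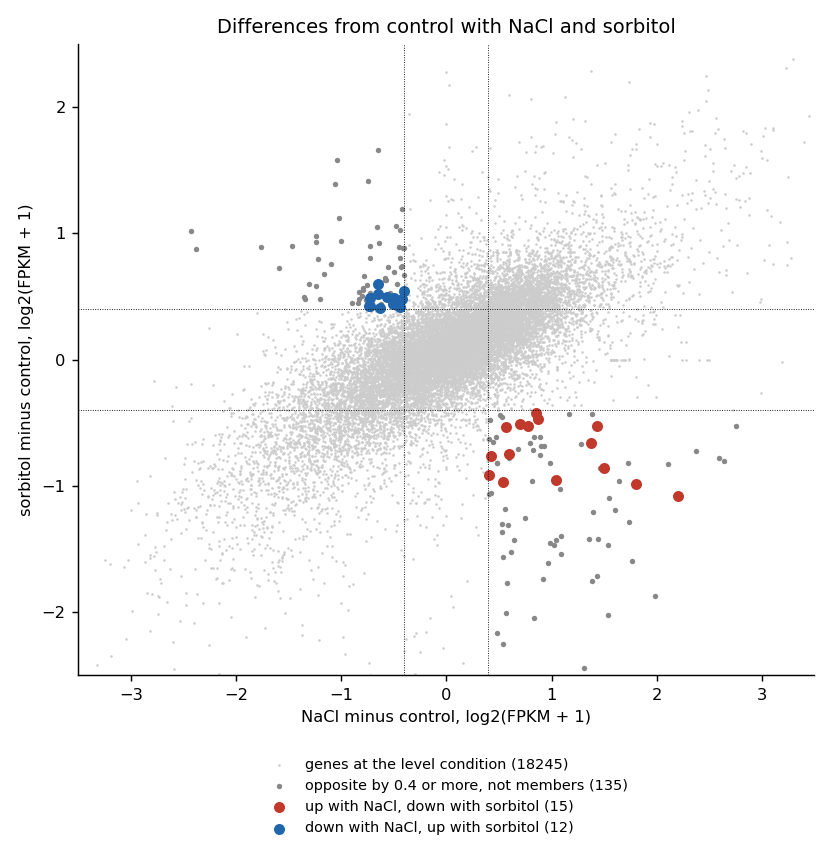
Mean log2(FPKM + 1) with NaCl (x axis) and with sorbitol (y axis), each minus the control mean, for the 18245 genes at the level condition (light grey, of which 93 lie outside the axes); dotted lines mark 0.4, dark grey points are the 135 genes that were opposite by 0.4 or more but failed another condition (3 outside the axes), and red and blue points are the 15 and 12 members. The sorbitol-high members sit close to the corner of the thresholds, whereas the NaCl-high members reach 2.20 on the x axis and -1.08 on the y axis.

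The classes differed in size of response and in level. In the NaCl-high class the NaCl difference ran from 0.40 to 2.20 on the log2(FPKM + 1) scale with a median of 0.85, and the sorbitol difference from -1.08 to -0.42 with a median of -0.75. In the sorbitol-high class the NaCl difference ran from -0.74 to -0.40 with a median of -0.60, and the sorbitol difference from 0.41 to 0.60 with a median of 0.49. Over the 18405 genes of a mean of at least 2 FPKM the medians were 0.07 with NaCl and 0.09 with sorbitol. A NaCl difference of at least 1 was reached by 6 of the 15 NaCl-high members and 0 of the 12 others, and a sorbitol difference of that size by 1 and 0. NaCl was further from the control than sorbitol in 11 of the 15 and in 10 of the 12. Over the 18405 genes NaCl differences were also the wider ones, with quartiles of -0.43 and 0.49 against -0.16 and 0.32 with sorbitol. The shares of all genes that meet these counts were not taken, so they are not read as a trait of the members.

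Mean levels of the NaCl-high members ran from 2.29 to 507 FPKM with a median of 17.6, and 11 of the 15 lay at or above 12.4 FPKM, the median of all genes of at least 2 FPKM. Mean levels of the sorbitol-high members ran from 2.64 to 34.5 FPKM with a median of 7.75, and 3 of the 12 lay at or above that median. Adding 1 before the logarithm shrinks the differences of low genes, so part of the members' order follows their level. In plain ratios of group means, the 11 NaCl-high members of at least 5 FPKM were 1.34 to 2.80 times as high with NaCl as in the control, and 1.35 to 2.12 times as high in the control as with sorbitol. NaCl and sorbitol were thus 2.19 to 4.55 times apart (median 2.64). For the 9 sorbitol-high members of that level, the control was 1.34 to 1.94 times NaCl, sorbitol was 1.34 to 1.50 times the control, and sorbitol was 1.92 to 2.72 times NaCl (median 2.11).

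The limma model across all 27038 genes of at least 1 FPKM in at least 3 libraries included all 27 members. At a Benjamini-Hochberg adjusted p of 0.05 it called 11 of the 15 NaCl-high members higher with NaCl, where 18.4% of all tested genes were called higher. It called 7 of the 15 lower with sorbitol, where 6.47% of all genes were, and 4 of them in both comparisons. Of the 12 sorbitol-high members, 8 were called lower with NaCl (17.4% of all genes), 3 higher with sorbitol (6.7%) and 3 in both. In NaCl against sorbitol all 15 were called higher (8.8% of all genes) and all 12 lower (11.9%). The rule used these contrasts, so nothing is read from these counts. Several counts fell when a library was left out, as did those over all tested genes. The 8 sorbitol-high members called lower with NaCl became 4 without NaCl replicate 1 and 5 without control replicate 1, control replicate 3 or NaCl replicate 3. Over all tested genes, 4715 were called lower with NaCl, and 3961 to 4265 in these fits. The 3 called higher with sorbitol became 1 without control replicate 2, sorbitol replicate 1 or sorbitol replicate 2. Without control replicate 1 limma called 0 of them, with 8 of the 12 at an unadjusted p under 0.05. The genes called higher with sorbitol over the whole table went from 1812 to between 1027 and 1458 in these fits. The 7 NaCl-high members called lower with sorbitol became 4 without control replicate 2, where those of all genes went from 1750 to 1189. In 20 of the 27 genes at least 1 of the differences from control was not called.

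The first named NaCl-high member, c29012_g1 (rank 3), was the highest-ranked of its class among the members of at least 10 FPKM on average. It was at 11.6, 12.5 and 9.75 FPKM in control replicates 1, 2 and 3, at 22.6, 24.8 and 25.1 with NaCl, at 5.95, 5.27 and 4.72 with sorbitol and at 13.2, 14.4 and 9.88 with H2O2. The NaCl libraries lay far above all others and the sorbitol libraries far below, where the rule asks only that neither overlap the controls. The H2O2 libraries reached from the control range to just above it. Its mean went from 11.3 ± 1.38 FPKM in control (SD, n = 3) to 24.2 ± 1.36 with NaCl and 5.31 ± 0.62 with sorbitol. On the log2(FPKM + 1) scale NaCl was 1.04 ± 0.15 above the control (SE from limma) and sorbitol was at -0.96 ± 0.15, about equal sizes.

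The second, c31180_g5 (rank 5), was at 71.9, 64.8 and 67.2 FPKM in control, at 216, 157 and 165 with NaCl and at 29.2, 48.7 and 53.9 with sorbitol. Its H2O2 libraries were at 79.1, 144 and 37.6 FPKM, so that replicate 2 lay close to the NaCl libraries and replicate 3 among the sorbitol libraries. Its NaCl difference was 1.37 ± 0.37 and its sorbitol difference -0.66 ± 0.37 (SE), and limma called the former only. The SE rests on all 4 groups, the widely spread H2O2 libraries included.

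Among the sorbitol-high members, c24898_g1 (rank 5) was at 11.4, 12.3 and 11.1 FPKM in control, 6.89, 8.78 and 8.23 with NaCl, 16.1, 18.5 and 15.6 with sorbitol and 14.1, 13.3 and 15.04 with H2O2. All 3 H2O2 libraries lay above the controls and below the sorbitol libraries. Its differences were -0.50 ± 0.12 with NaCl and 0.49 ± 0.12 with sorbitol (SE), and limma called both. The other, c25109_g1 (rank 10), was at 12.0, 10.4 and 11.6 FPKM in control, 6.87, 8.94 and 8.47 with NaCl, 17.6, 12.8 and 16.1 with sorbitol and 13.6, 10.7 and 12.9 with H2O2. Sorbitol replicate 2 of this gene was only just above the highest control, and limma called its NaCl difference (-0.44 ± 0.15) but not its sorbitol difference (0.41 ± 0.15).

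**Figure D2:**
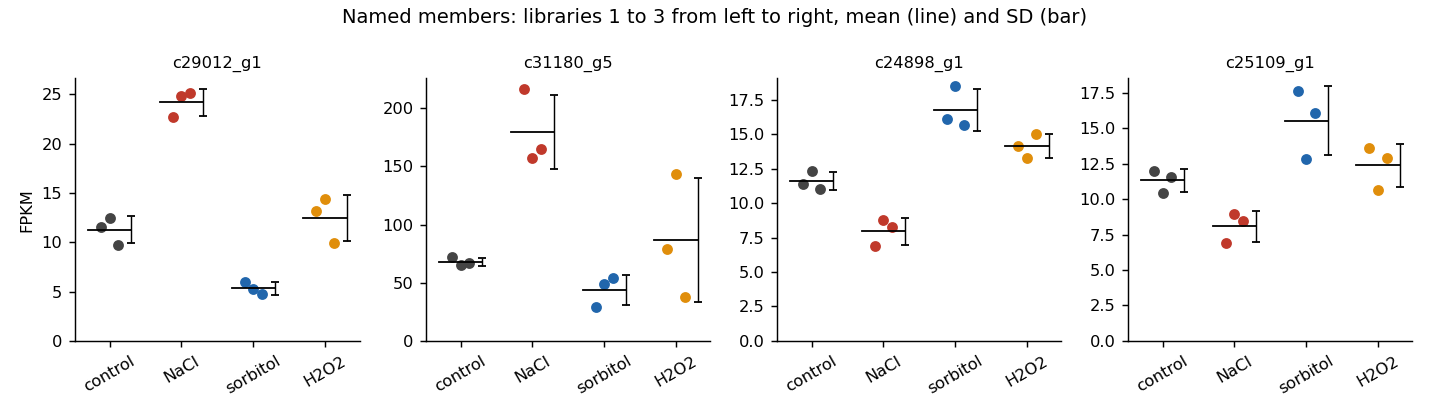
FPKM (y axis, from 0) of the 4 members named by ID in each group (x axis), with libraries 1, 2 and 3 as points from left to right, the group mean as a line and the SD as a bar beside it. The NaCl libraries lie above the controls and the sorbitol libraries below them in c29012_g1 and c31180_g5, the order is the reverse in c24898_g1 and c25109_g1, and the H2O2 libraries of c31180_g5 spread from 37.6 to 144 FPKM.

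The largest NaCl differences of the NaCl-high class belonged to genes that were low in control and nearly absent with sorbitol. Rank 1 was at 1.10, 1.23 and 1.08 FPKM in control, at 14.5, 11.2 and 4.00 with NaCl and at 0.03, 0 and 0 with sorbitol. Rank 2 was at 0.59, 0.89 and 1.93 FPKM in control, at 7.53, 9.38 and 3.24 with NaCl and at 0.05, 0.03 and 0.05 with sorbitol. Rank 4 was at 1.01, 0.89 and 1.54 FPKM in control, at 5.32, 9.82 and 2.18 with NaCl and at 0.32, 0.11 and 0.10 with sorbitol. In each of these genes NaCl replicate 3 was the lowest NaCl library, still above every control as the rule asks. The NaCl differences were 2.20 ± 0.59, 1.80 ± 0.41 and 1.50 ± 0.74 (SE), and limma called the first and the second. The sorbitol differences, -1.08, -0.98 and -0.86, had the same standard errors, and limma called none of the 3. A control level near 1 FPKM leaves little room for a fall on this scale, and values this low rest on an unknown and small number of reads.

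These low genes also had unlike H2O2 libraries. Rank 1 was at 0.25, 5.56 and 0.08 FPKM in H2O2 replicates 1, 2 and 3, rank 2 at 0.86, 2.56 and 0.37, and rank 4 at 0.30, 11.8 and 0.16. Replicate 2 was above every control library and replicate 3 below every one in all 3 genes. Their mean H2O2 differences of -0.05, 0.01 and 0.33, which let them pass the rule, are averages over libraries that lay on both sides of the controls.

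The other low member of the class, rank 11, was at 2.32, 3.10 and 3.62 FPKM in control, 4.43, 5.99 and 6.13 with NaCl and 1.95, 1.57 and 1.87 with sorbitol. Its H2O2 libraries, at 3.70, 2.36 and 3.11 FPKM, stayed near the control range. It was never near 0 and did not have the spread of the other low genes.

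Some of the more abundant NaCl-high members had smaller differences and less spread. Rank 6 was at 22.1 ± 1.04 FPKM in control (SD, n = 3), 34.1 ± 3.30 with NaCl and 12.8 ± 1.31 with sorbitol. Rank 8 was at 41.6 ± 3.33, 62.3 ± 7.83 and 28.5 ± 1.42 FPKM in the same order. Rank 14 was at 43.6 ± 4.17, 79.3 ± 1.33 and 32.3 ± 0.68 FPKM. With c29012_g1, these were the 4 NaCl-high members that limma called in both comparisons with control. Rank 14 was the most even of them within the treatments, with NaCl libraries at 80.3, 77.8 and 79.8 FPKM and sorbitol libraries at 32.8, 32.5 and 31.5.

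Ranks 9, 10 and 12, like rank 14 and most of the class, had a larger NaCl than sorbitol difference. Rank 9 went from 12.6 ± 2.25 FPKM in control to 35.4 ± 3.25 with NaCl and 8.38 ± 1.1 with sorbitol, differences of 1.43 and -0.53. Rank 10 was at 15.3 ± 2.62, 26.8 ± 2.59 and 10.2 ± 0.93 FPKM. Rank 12, the most abundant of all members, was at 433 ± 18.0, 791 ± 46.8 and 317 ± 68.8 FPKM. Limma called these 3 with NaCl but not with sorbitol. The controls of rank 9 ended at 10.02 FPKM and its sorbitol libraries began at 9.17, so the groups were separate by less than 1 FPKM.

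In the remaining NaCl-high members, as in rank 6 (0.60 and -0.75), sorbitol was the larger difference. Rank 7, the second by level, was at 148 ± 11.1 FPKM in control, 217 ± 32.2 with NaCl and 76.3 ± 15.3 with sorbitol. Rank 13 was at 92.4 ± 7.94, 124 ± 5.63 and 54.8 ± 12.2 FPKM. Rank 15 was at 13.9 ± 1.42, 18.7 ± 1.29 and 7.08 ± 1.83 FPKM. Limma called these 3 with sorbitol but not with NaCl, where their differences were 0.54 ± 0.25, 0.42 ± 0.18 and 0.40 ± 0.20 (SE).

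The sorbitol-high class was more uniform in the size of its differences, but not between the libraries of NaCl or of sorbitol. On the log2(FPKM + 1) scale, its range between libraries had a median of 0.47 within NaCl and 0.35 within sorbitol. The NaCl-high class had 0.27 in each, and all genes of at least 2 FPKM had 0.33 and 0.29. The most abundant sorbitol-high member, rank 11, was at 32.7, 33.2 and 36.8 FPKM in control, 19.3, 22.5 and 23.3 with NaCl and 46.3, 49.5 and 41.4 with sorbitol. Rank 2 was at 6.69, 7.08 and 8.19 FPKM in control, 3.46, 5.44 and 4.17 with NaCl and 11.3, 10.9 and 10.52 with sorbitol. In both the control, NaCl and sorbitol libraries did not overlap, which the rule asks of every member. The H2O2 libraries of rank 2 lay near its controls, at 8.10, 8.07 and 8.57 FPKM. Those of rank 11 were at 34.6, 32.5 and 41.9 FPKM, with replicate 3 inside the range of the sorbitol libraries. They and c24898_g1 were the 3 sorbitol-high members that limma called in both comparisons with control.

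Rank 9 of this class had narrow groups, at 4.70 ± 0.26 FPKM in control (SD, n = 3), 2.44 ± 0.15 with NaCl and 6.66 ± 0.54 with sorbitol. Rank 7 was at 5.17 ± 1.08, 2.66 ± 0.27 and 7.25 ± 1.00 FPKM. Rank 3 was at 5.42 ± 0.50, 3.41 ± 0.98 and 8.05 ± 0.64 FPKM, and rank 4 at 8.92 ± 1.05, 5.16 ± 2.03 and 13.0 ± 2.08 FPKM. Limma called these 4 with NaCl and not with sorbitol. The sorbitol libraries of rank 4 began at 10.6 FPKM, close above its highest control at 9.90.

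Limma called neither difference from control in the last 4 genes of the class. Rank 1 was at 2.29, 3.16 and 2.31 FPKM in control and at 0.22, 2.03 and 2.16 with NaCl, with NaCl replicate 1 far below the other NaCl libraries (difference -0.65 ± 0.33, SE). Its sorbitol libraries were at 5.89, 3.98 and 3.60 FPKM. Rank 6 went from 7.69 ± 0.50 FPKM in control (SD, n = 3) to 5.20 ± 1.43 with NaCl and 10.9 ± 1.61 with sorbitol. Rank 8 was at 2.29 ± 0.28, 1.46 ± 0.36 and 3.64 ± 1.00 FPKM, and rank 12 at 13.5 ± 1.72, 10.1 ± 2.31 and 20.2 ± 3.01 FPKM.

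**Figure D3:**
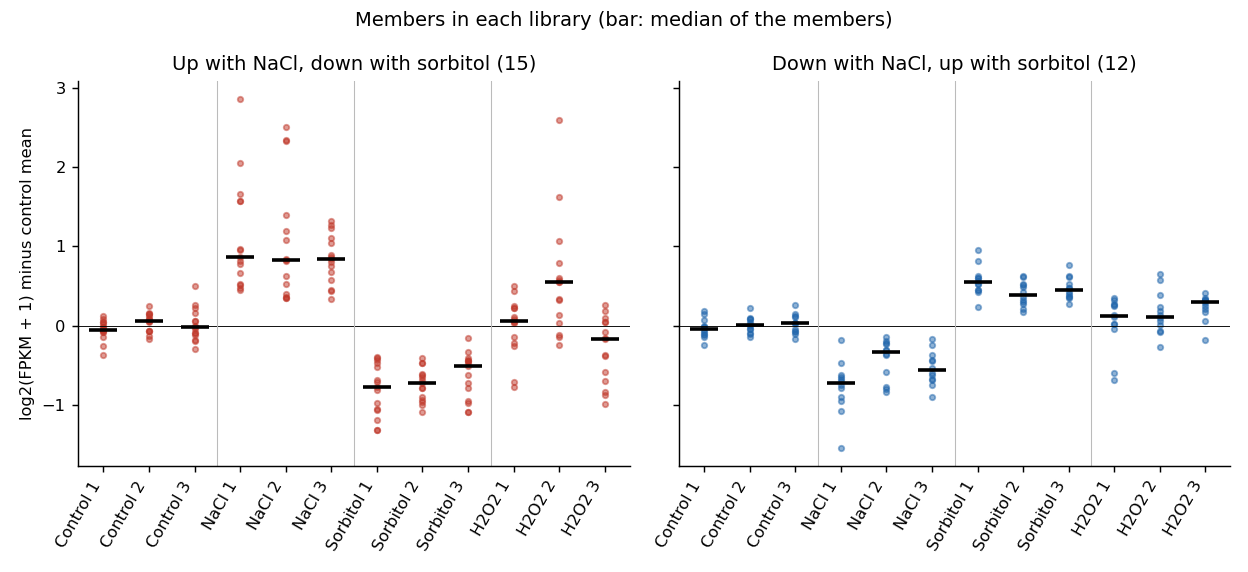
Log2(FPKM + 1) minus the control mean (y axis) for each member (points) in each of the 12 libraries (x axis), with the median of the members as a black bar, for the 15 NaCl-high members (left) and the 12 sorbitol-high members (right). The median of the NaCl-high members is alike in the 3 NaCl libraries (0.82 to 0.87) but runs from -0.17 to 0.54 over the H2O2 libraries.

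Single libraries within a group stood apart in these members. The median difference of the sorbitol-high members from the control mean was -0.73, -0.34 and -0.57 in NaCl replicates 1, 2 and 3. NaCl replicate 1 was the lowest NaCl library in 8 of these 12 genes and replicate 2 the highest in 7, which are the orders also found most often over all genes of at least 2 FPKM (49.6% and 45.1%). In the NaCl-high class, NaCl replicate 1 was the highest in 8 of 15 genes, against 16.4% of all genes. The medians of the NaCl-high members were nevertheless close, 0.87, 0.82 and 0.84.

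The H2O2 libraries of the NaCl-high class differed most among themselves. Their median difference from the control mean was 0.05, 0.54 and -0.17 in replicates 1, 2 and 3, where all genes of at least 2 FPKM had 0.08, 0.14 and 0.07. Replicate 2 was above all 3 controls in 11 of the 15 members, where 48.3% of all genes of that level were. Replicate 3 was below all 3 controls in 9 of the 15, where 21.7% of all genes were. Both held in 8 of the 15 members and in 0 of the 12 sorbitol-high members, against 9.63% of all genes and 10.9% of those with an absolute H2O2 difference below 0.4. The range between the highest and the lowest H2O2 library had a median of 0.71 on the log2(FPKM + 1) scale in the NaCl-high class and 0.28 in the sorbitol-high class, where all genes of at least 2 FPKM had 0.38. It was at least 1 in 5 of the 15 genes and in 9.2% of all genes. Within control and sorbitol the median ranges of the NaCl-high class were 0.24 and 0.27, close to those of all genes (0.28 and 0.29). Within NaCl the median was 0.27 against 0.33, but the range was at least 1 in 3 of the 15 genes, where 8.2% of all genes had that. The rule asks for separate control, NaCl and sorbitol libraries, which limits their spread, and asks nothing of single H2O2 libraries. The groups are therefore not alike for this comparison.

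Rank 7 shows the order at a high level, with 153, 216 and 90.4 FPKM in H2O2 replicates 1, 2 and 3, against 136 to 156 in control. Rank 12 was at 464, 658 and 333 FPKM, against 415 to 451 in control. Rank 15 was at 20.0, 20.8 and 12.3 FPKM, against 13.1 to 15.6. By contrast, rank 8 was even across H2O2, at 44.2, 45.7 and 49.8 FPKM, and so was rank 14, at 44.5, 39.3 and 49.5. The order was therefore found in low and in abundant members of the class but not in every one. It was seen in the values, and the H2O2 group had a part in choosing the members, so no test was made. The relative depths of H2O2 replicates 1, 2 and 3 were 0.917, 0.911 and 0.953, and their part in the order was not tested.

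The sorbitol-high members were more often above the controls in H2O2 replicate 3, in 10 of the 12, where 39.3% of all genes were. Their H2O2 difference ran from -0.17 to 0.35 with a median of 0.17, against 0.10 over all genes of at least 2 FPKM. Within the limit of 0.4, rank 8 (3.12, 3.29 and 3.12 FPKM) and rank 9 (6.28, 5.10 and 6.11 FPKM) had all 3 H2O2 libraries above their highest controls of 2.52 and 4.88 FPKM. So did c24898_g1, as given above. The share of all genes with this order was not counted. None of the 27 members (0) had all 3 H2O2 libraries within the control range, which 10.1% of all genes had. The rule leaves out genes whose controls overlap the treatments, so wide control ranges are rare among members. The widest was 0.88 in the NaCl-high and 0.50 in the sorbitol-high class, against 5.09 over all genes. Shares of all genes above, below or within the controls are therefore not a like background, and nothing is read from these counts.

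**Figure D4:**
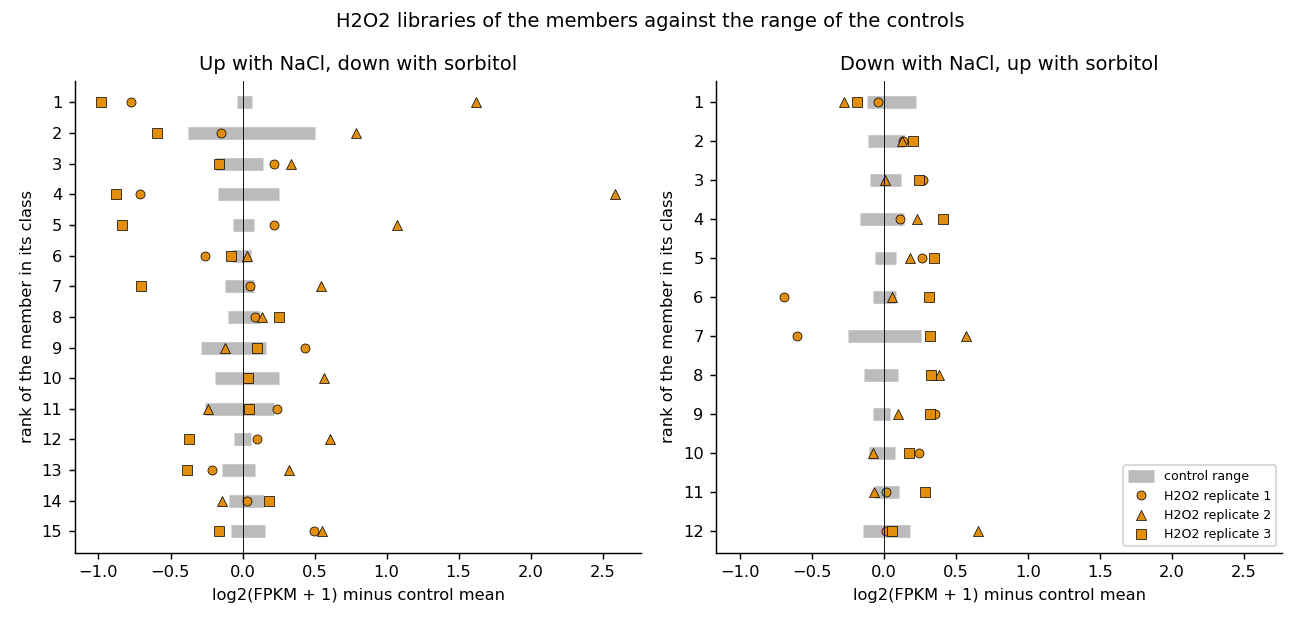
Log2(FPKM + 1) minus the control mean (x axis) in the 3 H2O2 libraries (circle, triangle and square for replicates 1, 2 and 3) for each member (y axis, by rank in its class), with the range of the 3 control libraries as a grey bar. In 8 of the 15 NaCl-high members the triangle lies right and the square left of the grey bar, and in 0 of the 12 sorbitol-high members.

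The members came from 26 components, and 8 of the 27 (29.6%) shared their component with other genes of the table, against 36.9% of all genes of at least 2 FPKM. Genes of a component have related sequences, so their reads can be divided between them by the abundance estimate, and they are not independent measurements. A single component held 2 members, c31180_g5 and rank 12 of the NaCl-high class. This component has 9 genes in the table, and 4 of them exceed 2 FPKM on average.

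Both other genes of that level in the component were also higher with NaCl and lower with sorbitol. Gene 8 of the component was at 105, 109 and 126 FPKM in control, 338, 282 and 272 with NaCl and 70.6, 74.9 and 112 with sorbitol. It rose with NaCl (log2 difference 1.38 ± 0.22, limma adjusted p = 0.00035) and did not pass with sorbitol (-0.43 ± 0.22, limma adjusted p = 0.23), and its sorbitol replicate 3 lay among the controls. Gene 7 was at 138, 117 and 112 FPKM in control, 207, 136 and 147 with NaCl and 41.1, 65.8 and 70.3 with sorbitol. It fell with sorbitol (-1.07 ± 0.26, limma adjusted p = 0.019) and did not pass with NaCl (0.40 ± 0.26, limma adjusted p = 0.27). H2O2 replicate 2 was the highest and replicate 3 the lowest H2O2 library in all 4 genes, at 197 and 102 FPKM in gene 8 and at 140 and 66.8 FPKM in gene 7.

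**Figure D5:**
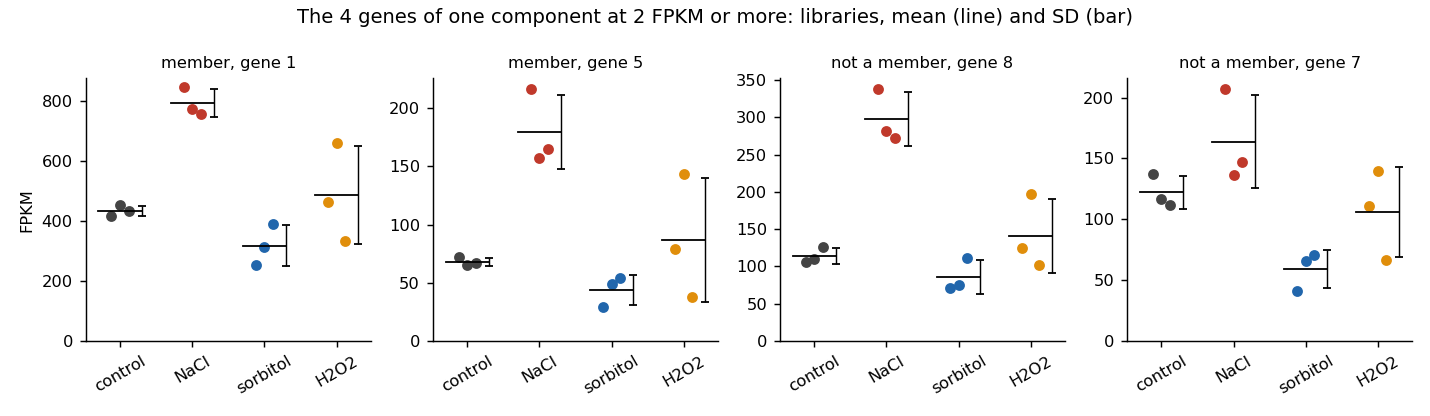
FPKM (y axes, from 0) in each group (x axis) of the 4 genes at 2 FPKM or more of the component that holds 2 members, with libraries 1, 2 and 3 as points from left to right, the mean as a line and the SD as a bar. In all 4 genes the NaCl mean is the highest and the sorbitol mean the lowest, and H2O2 replicate 2 lies above the other H2O2 libraries.

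In the comparisons with control, both directions together, other genes of the members' components were called about as often as all tested genes. The members' components held 29 other genes, of which 19 could be tested, and 13 of these belonged to the 17-gene component of rank 10 of the NaCl-high class. With NaCl, 6 of the 19 passed in limma, 3 higher and 3 lower, where 35.8% of all tested genes passed. With sorbitol, 3 of the 19 passed, all lower, where 13.2% of all genes passed and 6.47% were called lower. In NaCl against sorbitol they were called more often, 3 of the 19 higher and 4 lower, where 8.8% and 11.9% of all tested genes were. The components were unlike. In that of c31180_g5, 3 of the 4 tested other genes differed from control in the same opposite directions as the members. In the 17-gene component 2 of the 13 did so. The median differences of the 19 were -0.37 with NaCl and -0.07 with sorbitol, where those of all tested genes were 0.03 and 0.07. The most abundant other gene of the 17-gene component went from 445 ± 28.6 FPKM in control to 309 ± 7.96 with NaCl and 385 ± 10.4 with sorbitol, lower in both (-0.52 ± 0.06 and -0.21 ± 0.06, limma adjusted p = 3.5e-05 and 0.045). Its member was at 15.3, 26.8 and 10.2 FPKM in the same groups, higher with NaCl where the abundant gene was lower. Without control replicate 1 the count with NaCl was 3, and without sorbitol replicate 1 that with sorbitol was 0 in limma, with 3 of them at an unadjusted p under 0.05.

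The threshold of 0.4 does not mark a gap. The NaCl-high members just inside it had NaCl and sorbitol differences of 0.85 and -0.42, and of 0.40 and -0.91. The genes just outside had 0.49 and -0.40, and 2.72 and -0.40, both with a sorbitol difference short of 0.4. On the sorbitol-high side, those just inside had -0.63 and 0.41, and -0.40 and 0.54, and those just outside -0.41 and 0.39, and -1.39 and 0.39. With all other conditions met, 14 NaCl-high and 11 sorbitol-high genes had a smaller difference between 0.35 and 0.4, and 3 and 7 had one between 0.4 and 0.45.

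The number of genes in each class depended on the scaling of the libraries. Under median-ratio scaling the median sorbitol difference of all genes of at least 2 FPKM shifted by -0.08 and that with H2O2 by -0.10. The sorbitol-high class then had 6 genes, 5 of them among the 12. With equal sums it had 22 genes, 9 of them among the 12. The NaCl-high class numbered 31 and 18 genes, 13 of the 15 being kept in each case. All 27 members kept the opposite signs of their differences under both scalings. Most members that were lost had a difference that no longer reached 0.4. Ranks 4 (-0.78 and 0.41) and 12 (-0.45 and 0.46) of the sorbitol-high class kept both differences beyond 0.4 under median-ratio scaling and failed another condition. With each library left out in turn, the rule found the same gene again in all 12 repeats for 7 of the 15 NaCl-high and 3 of the 12 sorbitol-high members, and in at least 8 repeats for each of the 27.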

How the data were processed

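RNA was sequenced from 12 libraries in 4 groups, taken from the sample titles. Per the submitters' processing notes, reads were processed with cutadapt, an adapter trimmer, and RSEM, which estimates transcript abundance; tool versions, the reference and its build were not given in the sources used here. FPKM was taken as the unit of the deposited values, which no label states and which was inferred from the values (2 decimals, unequal sums per library), so any further scaling by the authors is unknown.

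The rule and the difference of each group from control were computed on log2(FPKM + 1) in Python 3.11.15 with numpy 2.4.6 and pandas 2.3.3; figures used matplotlib 3.10.9. All 12 libraries entered a single fit with a mean-variance trend in limma 3.58.1 under R 4.3.3, with p-values adjusted over 27038 genes by the Benjamini-Hochberg method; it was tested on simulated data first. Standard errors in the text come from it. Every adjusted p below 0.05 counted as called. The members, their classes and the rule for naming genes were chosen with earlier results of these data known. Deviations from the group means correlated at -0.083 to 0.047 between libraries of the same number (18 pairs), so replicate numbers were not taken as pairs. Alternatives were the pseudocount, scaling, filters, thresholds, model terms and each library left out.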

Additional observations from a re-analysis of the deposited data

How the results depend on the processing

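Counts are of the NaCl-high and the sorbitol-high class, 15 and 12 as given. They were 31 and 6 under median-ratio scaling, 18 and 22 with equal sums, 39 and 36 at a minimum difference of 0.3, and 5 and 1 at 0.6. Without a minimum mean the NaCl-high class had 27 genes, and without the condition on H2O2 it had 36. Without the condition on single libraries the classes had 31 and 40. Fewer conditions or lower thresholds let more genes pass by construction, and the scalings shift the differences of all genes. The medians over genes of at least 2 FPKM shifted by -0.05 with NaCl, -0.08 with sorbitol and -0.10 with H2O2 under median-ratio scaling. With equal sums they shifted the other way, by 0.05, 0.07 and 0.03. A pseudocount of 0.1 (21 and 18), a minimum mean of 5 FPKM (11 and 9) and components with 1 gene (10 and 9) stayed within 1.5 times. Leaving out each library gave 13 to 31 and 9 to 27, the highest without sorbitol replicate 3. The NaCl-high count was 25, 23 and 24 without control replicates 1, 2 and 3, 23 without NaCl replicate 2 and 25 without sorbitol replicate 1. The sorbitol-high count was 19 without NaCl replicate 2 and 26 without sorbitol replicate 2. With fewer libraries in a group, fewer have to be separated.

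In limma, NaCl against control called 9681 genes and 8220 to 10170 with each library left out, and NaCl against sorbitol 5596 and 4180 to 6116. Sorbitol against control called 3562 and 2220 to 4206, with 2355, 2246 and 2220 without control replicates 1 and 2 and sorbitol replicate 3, and 2337 with no filter. Its 1812 higher and 1750 lower genes became 1233 and 2167 under median-ratio scaling and 2656 and 1537 with equal sums. Other genes of the members' components called with NaCl numbered 6, and 3 with no filter and 3 to 7 with each library left out. Those called with sorbitol numbered 3, and 0 with no filter, 1 with only the groups compared and 0 to 3 with each library left out (1 without control replicate 1, control replicate 2, sorbitol replicate 2 or sorbitol replicate 3). With no filter 6 of these genes had an unadjusted p under 0.05 with sorbitol. Sorbitol-high members called higher with sorbitol numbered 3, and 5 with equal sums or only the groups compared, 1 with no filter, 1 under the replicate block and 0 to 4 with each library left out. Those called lower with NaCl numbered 8, and 5 with no filter and 4 to 9 with each library left out. NaCl-high members called lower with sorbitol numbered 7, and 4 to 9 with each library left out, and those called higher with NaCl 11, and 10 to 14. The cause was not tested. With the replicate number as a block, limma called 9041, 2859 and 4973 genes, and 3 of 12 libraries had their best correlation at their own number. Depth is unknown, so the values near 0 of the low NaCl-high members carry an unknown counting error.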

Other observations

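Of the 162 genes with opposite differences, more were set aside by the condition on H2O2 on the NaCl-high side (54 of 85) than on the sorbitol-high side (37 of 77). This difference was not tested. Over all 18405 genes of at least 2 FPKM, 15896 had an absolute H2O2 difference below 0.4, so both sides failed this condition more often than genes in general. Without that condition, and with the condition on single libraries kept, the NaCl-high side had 36 genes in place of 15 and the sorbitol-high side 14 in place of 12.

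A gene of 1.70 FPKM in the 17-gene component was below the level the rule asks for. It was at 0.69, 2.92 and 1.14 FPKM in control, 2.36, 6.22 and 3.16 with NaCl and 0, 0 and 0 with sorbitol. It fell with sorbitol (log2 difference -1.28 ± 0.36, limma adjusted p = 0.037) and did not pass with NaCl (0.94 ± 0.36, limma adjusted p = 0.061). It was picked out after its values were seen.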
